A study of Mus musculus with 4 samples.

Results

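Among the transcripts assembled from whole 4T1 tumors, 1871 of 54389 lay across the end of an annotated gene without being a known form of it. A transcript was counted here if it shared no intron with any gene, had under 50% of its exon bases in annotated exons, and overlapped the span of a gene while running beyond its start or its end. There were 209 such transcripts of 22481 after Control SMO and 1662 of 31908 after LFPRLR SMO. The gene crossed is called the host. Transcripts were divided by the strand of the host into those crossing a 5' end, those crossing a 3' end and those crossing both kinds of end, either of 1 gene that they span or of different genes.

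4T1 cells, a mouse mammary carcinoma line, were grown as primary tumors in the mammary fat pad of female Balb/c mice, 8 weeks of age, that express EGFP from the Foxp3 promoter. The mice received either Control SMO or LFPRLR SMO for 12 days. A splice modulating oligomer (SMO) binds pre-mRNA and changes how it is spliced, and the LFPRLR SMO is directed at the long form of the prolactin receptor. RNA from 6 mice was combined in equal amounts for each treatment, depleted of rRNA and made into a single library, so that treatment and library cannot be told apart, and neither p-values nor SDs are given.

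The level of a transcript is given as FPKM, fragments scaled to transcript length and to the mapped fragments of the library, as the authors' files state it. The lists hold no read counts, and depth is therefore unknown. The median coverage at 1 FPKM was 1.88 after Control SMO and 1.75 after LFPRLR SMO. The FPKM values of the 2 libraries started at 0.211 and 0.247. All 6 epithelial, 6 macrophage, 5 fibroblast, 3 endothelial and 3 neutrophil markers examined were listed in both libraries, and none of 5 T cell markers was. Neither library listed a transcript of Prlr, which encodes the prolactin receptor. In whole tumors, fewer cells of a type and less RNA per cell cannot be told apart.

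A mammalian gene has no single start or end. Many promoters lie in CpG islands, stretches rich in the CG dinucleotide, from which RNA polymerase II can start at several positions and often in both directions, so that neighbouring genes on opposite strands may share a promoter. At the other end, the transcript is cleaved a short way downstream of a poly(A) signal, most often AATAAA or ATTAAA, and the polymerase runs on beyond the cleavage site before it terminates. RNA left after poly(A) selection would hold mainly mature mRNA, whereas rRNA depletion also keeps unspliced and non-polyadenylated RNA.

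Transcripts crossing a 5' end made up most of the difference between the libraries in the number of transcripts across gene ends. There were 83 after Control SMO and 1416 after LFPRLR SMO, a 17.1-fold difference. Those crossing a 3' end numbered 99 and 137, a 1.38-fold difference, and those crossing both kinds of end 27 and 109. For comparison, transcripts that could be assigned to a gene, through a shared intron or at least 50% of their exon bases, numbered 18720 and 20452, a 1.09-fold difference. Unassigned transcripts lying wholly within a gene numbered 3190 and 9210, which is 2.89-fold, and those between genes 362 and 584, which is 1.61-fold. With 1 library per treatment these ratios describe the libraries, and whether they would hold in other tumors was not tested.

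**Figure D1:**
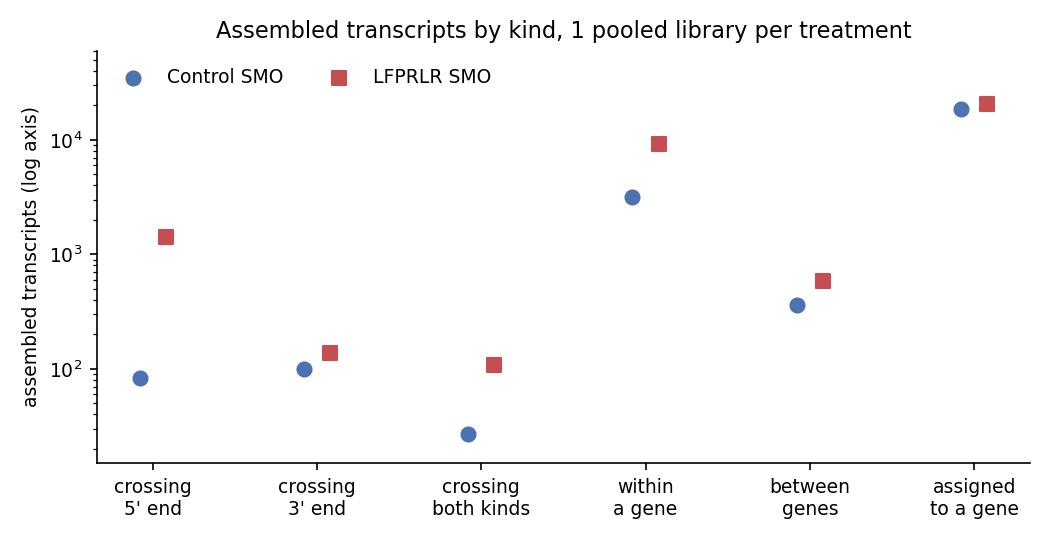
Number of assembled transcripts of each kind (log axis) in the Control SMO library (circles) and the LFPRLR SMO library (squares), each from pooled RNA of 6 mice. Transcripts crossing a 5' end numbered 83 and 1416, whereas those assigned to a gene numbered 18720 and 20452.

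Nearly all were unspliced, as were other unassigned transcripts. After Control SMO and LFPRLR SMO, 99.8% and 99.9% of those within genes had a single exon, and 98.1% and 98.6% of those between genes. Of the 209 transcripts with Control SMO 202 had a single exon, as did 1653 of the 1662 with LFPRLR SMO. Their median length was 1077 bases after Control SMO and 1004 bases after LFPRLR SMO at 5' ends, and 1333 and 1279 bases at 3' ends, compared with 1496 and 1370 bases for transcripts assigned to genes. At 5' ends they ran beyond the gene by a median of 562 bases with Control SMO (quartiles 305 and 904) and 306 bases with LFPRLR SMO (quartiles 172 and 535). At 3' ends the median extension was 965 bases (quartiles 654 and 1484) and 816 bases (quartiles 518 and 1232).

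**Figure D2:**
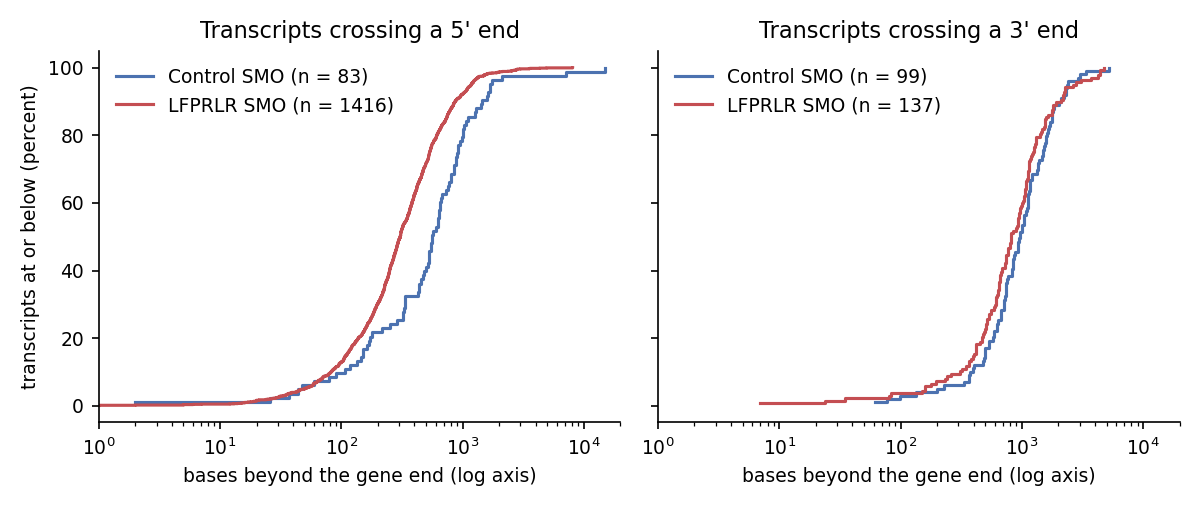
Cumulative percent of transcripts (vertical axis) by the number of bases they ran beyond the gene end (log axis), for transcripts crossing a 5' end (left) or a 3' end (right) in the Control SMO and LFPRLR SMO libraries. The LFPRLR SMO curve lies left of the Control SMO curve at 5' ends, with medians of 306 and 562 bases, and close to it at 3' ends, with medians of 816 and 965 bases.

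At 5' and at 3' ends their median level was low. Median FPKM at 5' ends was 1.49 after Control SMO and 2.16 after LFPRLR SMO, and at 3' ends it was 1.61 and 1.77. Transcripts assigned to genes had medians of 2.49 and 2.44. Other unassigned transcripts were also low, with medians of 1.67 and 1.95 within genes and 1.67 and 1.86 between genes. The lowest listed FPKM of a transcript across a gene end was 0.677 after Control SMO and 0.370 after LFPRLR SMO. The highest was 517 at 5' ends, with Control SMO, and 488 at 3' ends, with LFPRLR SMO. Among transcripts crossing both kinds of end the highest was 26260.6 after Control SMO and 15527.9 after LFPRLR SMO, at the miRNA gene Gm23935.

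The hosts also differed in kind. With LFPRLR SMO, 1297 of the 1416 transcripts crossing a 5' end (91.6%) had a protein coding host, compared with 46 of 83 (55.4%) with Control SMO. At 3' ends, 52 of 99 (52.5%) after Control SMO and 57 of 137 (41.6%) after LFPRLR SMO had one. Some transcripts that crossed a gene end lay wholly inside another gene, 93 after Control SMO and 308 after LFPRLR SMO. Counting only protein coding genes crossed at 1 end, 50 genes were crossed at the 5' end after Control SMO and 1391 after LFPRLR SMO, and 54 and 68 at the 3' end. Both libraries had 21 of the 5' hosts in common, which is 42% of those after Control SMO and 1.51% of those after LFPRLR SMO. They shared 16 of the 3' hosts, which is 29.6% and 23.5%.

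Most 5' hosts were genes with RNA of their own in the tumor. With LFPRLR SMO, 1041 of the 1391 had an assigned transcript, with a median gene FPKM of 5.46, and with Control SMO 33 of 50 had one, with a median of 5.65. Of the 350 without one in the LFPRLR SMO library, 63 were listed with Control SMO and 287 in neither library. Where Cufflinks, the program that assembled the transcripts, gave a strand, it was that of the host for 1079 pairs of transcript and coding gene and the opposite one for 59 at 5' ends with LFPRLR SMO. No strand was given for 255. With Control SMO these numbers were 31, 4 and 15. Of the 1393 pairs with LFPRLR SMO, 1391 had an unspliced transcript. How Cufflinks gave a strand to unspliced transcripts is not stated in the sources used here. In 522 of the 1393 pairs with LFPRLR SMO, Cufflinks had placed the transcript in the same assembled locus as a transcript assigned to the host, compared with 9 of 50 with Control SMO.

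The 5' transcripts ran through the first exon into the first intron. With LFPRLR SMO, the inner end lay past the first annotated exon in 1305 of 1393 pairs (93.7%), and a median of 685 bases lay within the host, of which 36.5% were exonic. With Control SMO it lay past the first exon in 35 of 50 pairs, with a median of 588 bases inside the host. Transcripts crossing a 3' end were laid out differently, since the inner end stayed within the last annotated exon in 41 of 54 pairs (75.9%) after Control SMO and 51 of 69 (73.9%) after LFPRLR SMO. A median of 431 and 339 bases lay within the host there. The exon limit in the definition bears on these shares, because a transcript with most of its bases in exons is not counted.

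Without the exon limit the libraries still differed at 5' ends. Unspliced transcripts without a shared intron that crossed the 5' end of a coding gene numbered 153 after Control SMO and 2190 after LFPRLR SMO. Those with 75% to 100% of their bases in exons numbered 81 and 377, those with 50% to 75% numbered 25 and 478, those with 25% to 50% numbered 21 and 784, and those with 10% to 25% numbered 17 and 477. Below 10% there were 9 and 74. At 3' ends the same count gave 459 after Control SMO and 478 after LFPRLR SMO.

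The position of these transcripts was examined over 8372 protein coding genes whose FPKM was 1 or more in each library, a set that does not depend on the presence of a crossing transcript. An unassigned transcript of any kind covered the annotated start of 32 genes (0.382%) after Control SMO and of 998 genes (11.9%) after LFPRLR SMO. Of the 8372 genes, 30 and 993 were themselves 5' hosts. The cover at the start therefore largely repeats the counts above and is not separate support for them. With LFPRLR SMO the cover rose from 36 genes at 3000 bases upstream to a maximum of 1082 genes (12.9%) at 350 bases downstream, and fell to 230 genes at 3000 bases downstream. With Control SMO there was no peak at the start, and the cover went from 16 genes upstream to a maximum of 104 genes (1.24%) at 1250 bases downstream and 92 genes at 3000 bases. Around the 3' end both libraries had a low, broad cover, of 44 and 51 genes at the end itself and at most 91 and 138 genes, in both cases 1050 bases past it. Transcripts assigned to genes also covered more starts with LFPRLR SMO, 39.0% of genes compared with 22.5% with Control SMO.

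**Figure D3:**
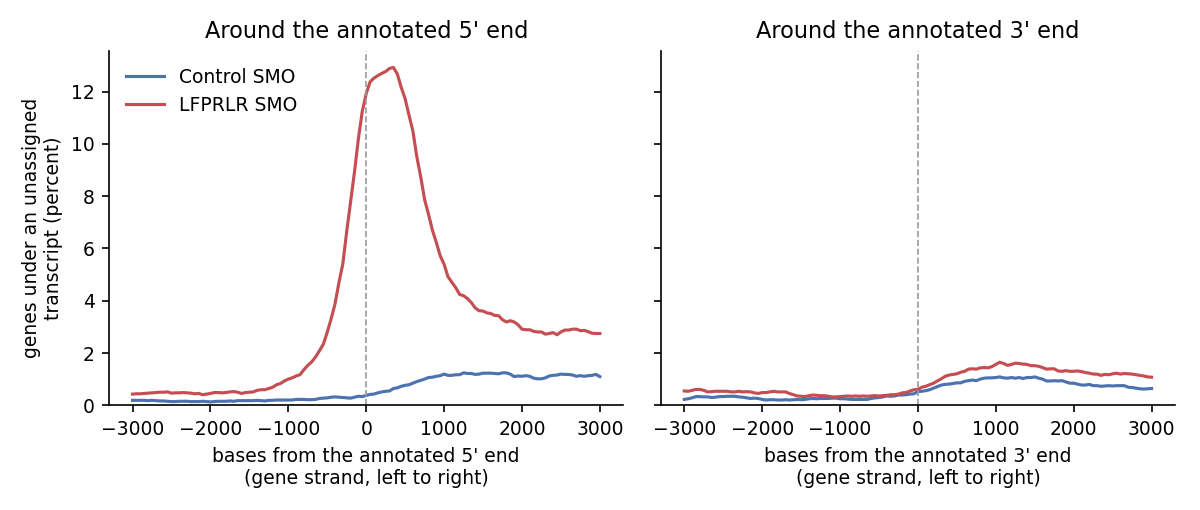
Percent of 8372 protein coding genes covered by an unassigned transcript (vertical axis) at each position from the annotated 5' end (left) and 3' end (right), in bases along the gene strand, for the Control SMO and LFPRLR SMO libraries. The LFPRLR SMO curve reached 12.9% at 350 bases past the start, whereas both curves stayed at or under 1.65% around the 3' end.

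Genes crossed at the 5' end with LFPRLR SMO had starts rich in CG. The first 200 bases of the transcript beginning at the annotated start held a median of 24 CG steps in these hosts (quartiles 18 and 29), compared with 16 (quartiles 10 and 23) in all 8372 genes and 14 (quartiles 11 and 21) in the 5' hosts with Control SMO. Hosts crossed at the 3' end had medians of 11 after Control SMO and 10 after LFPRLR SMO. The share of G and C in the same bases was 72% in 5' hosts with LFPRLR SMO, 62.5% in those with Control SMO and 63.5% in all 8372 genes. The base composition of the starts moved together with the number of crossing transcripts, and its part in the difference between the libraries was not tested.

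Divided by the number of CG steps, 7 of 801 genes (0.874%) with 0 to 4 steps were crossed at the 5' end with LFPRLR SMO. This rose to 2.79% of 1217 genes with 5 to 9 steps, 6.77% of 1551 genes with 10 to 14, 9.07% of 1709 genes with 15 to 19, and 22.4% (692 of 3090) with 20 or more. With Control SMO no order was seen, with 0 of 801, 5, 12, 5 and 8 genes (0.259%) in these classes. Genes crossed at the 3' end went the other way in both libraries, from 11 genes (1.37%) after Control SMO and 9 (1.12%) after LFPRLR SMO in the lowest class to 11 (0.356%) and 13 (0.421%) in the highest. The order at 5' ends was also present within ranges of host expression. Among genes with a mean FPKM of 1 to 3, taken as the geometric mean of both libraries, 2 of 450 genes (0.444%) with up to 9 CG steps and 153 of 1001 (15.3%) with 10 or more were crossed with LFPRLR SMO, among those of 3 to 10 FPKM 2.90% and 17.0%, and among those of 10 or more 1.60% and 10.1%. By host FPKM alone, the share was 10.7% at 1 to 3, 13.9% at 3 to 10, 9.96% at 10 to 30 and 2.03% above, the lowest share being that of the most abundant genes.

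**Figure D4:**
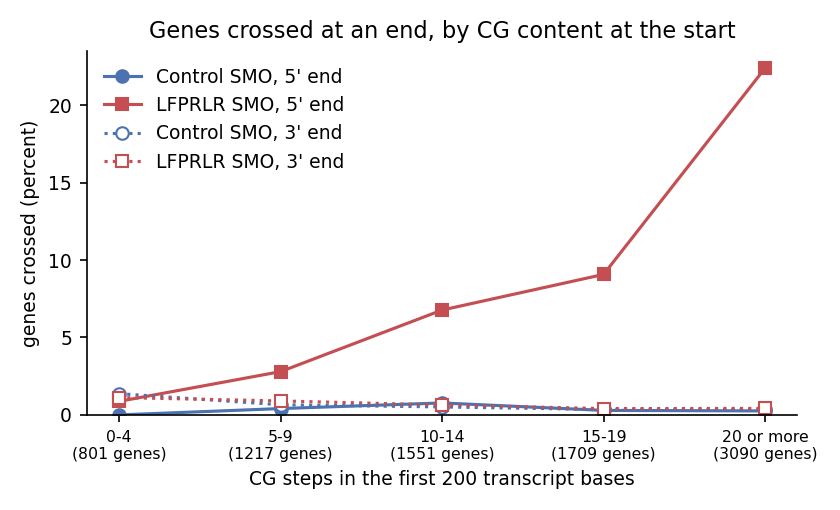
Percent of genes whose FPKM was 1 or more in each library that were crossed at the 5' end (filled symbols) or 3' end (open symbols), by the number of CG steps in the first 200 transcript bases, for the Control SMO (circles) and LFPRLR SMO (squares) libraries. The 5' share with LFPRLR SMO rose from 0.874% to 22.4%, whereas the other series stayed at or under 1.37%.

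To show what these starts look like, 200 bases of RefSeq sequence (GRCm38) are given for 4 hosts, 170 before the RefSeq start and 30 after it on the strand of the gene, with each CG in capitals. Parp8 and Crlf3 were crossed at the 5' end with LFPRLR SMO only, and Irf2bp2 and Maml2 in both libraries. The Control SMO transcript at Irf2bp2 held only 4 bases of the gene. The windows lie at chr13:117025502-117025701 (minus strand), chr11:80080962-80081161 (minus strand), chr8:126593957-126594156 (minus strand) and chr9:13297788-13297987 (plus strand).
Parp8: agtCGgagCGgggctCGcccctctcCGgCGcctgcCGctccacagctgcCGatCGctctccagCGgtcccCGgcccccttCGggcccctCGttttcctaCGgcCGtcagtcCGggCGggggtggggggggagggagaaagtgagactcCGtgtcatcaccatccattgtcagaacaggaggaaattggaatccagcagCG
Crlf3: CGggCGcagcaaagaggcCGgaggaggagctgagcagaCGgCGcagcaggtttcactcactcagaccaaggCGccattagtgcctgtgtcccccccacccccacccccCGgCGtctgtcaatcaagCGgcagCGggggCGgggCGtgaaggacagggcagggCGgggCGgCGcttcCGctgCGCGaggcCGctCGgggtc
Irf2bp2: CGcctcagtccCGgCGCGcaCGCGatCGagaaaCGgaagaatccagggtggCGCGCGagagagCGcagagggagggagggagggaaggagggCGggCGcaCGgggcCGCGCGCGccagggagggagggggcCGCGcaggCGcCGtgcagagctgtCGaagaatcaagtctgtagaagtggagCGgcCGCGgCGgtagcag
Maml2: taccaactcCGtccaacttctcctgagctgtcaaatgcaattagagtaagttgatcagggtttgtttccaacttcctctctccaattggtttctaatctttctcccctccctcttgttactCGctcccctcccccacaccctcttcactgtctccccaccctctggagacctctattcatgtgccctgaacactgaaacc
The first 3 windows hold 18, 20 and 28 CG steps, and that of Maml2 holds 2. These windows lie mostly before the start, so their counts cannot be read against those of the first 200 transcript bases.

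Among the 5' transcripts with the highest FPKM with LFPRLR SMO, that of Dcaf15, a substrate receptor of a cullin ubiquitin ligase, had an FPKM of 18.4 (chr8:84104529-84104855, 327 bases). It ran 87 bases beyond the gene and 240 into it, and 46.5% of it was exonic. The assigned transcripts of Dcaf15 had an FPKM of 1.33 in the same library and 2.49 with Control SMO. Slc25a15, which encodes a mitochondrial ornithine carrier, was crossed by a transcript of 518 bases with an FPKM of 7.83 (chr8:22398161-22398678) and had no assigned transcript in either library. In these genes the crossing transcript was higher in FPKM than the transcripts assigned to the gene.

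Parp8, a member of the PARP family, was crossed by a transcript of 555 bases with an FPKM of 7.59 that extended 425 bases upstream (chr13:117025408-117025962). It had a gene FPKM of 6.52 after Control SMO and 17.0 after LFPRLR SMO. The transcript across Crlf3, a cytokine receptor-like factor, had an FPKM of 7.39 and extended 111 bases upstream (chr11:80080545-80081102), and that across Zfp609, a zinc finger protein, had an FPKM of 7.39 and extended 286 bases (chr9:65827344-65827850). The Crlf3 gene had 7.42 after Control SMO and 5.20 after LFPRLR SMO, and Zfp609 had 9.57 and 10.5. None of the 5 hosts was crossed at the 5' end with Control SMO, although 4 of them had annotated RNA there.

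Several of the longest 5' extensions with LFPRLR SMO reached or ran towards a neighbouring gene. The one across Igip ran 4309 bases upstream of the gene (chr18:36294370-36301478, FPKM 3.46) towards the end of Pura, which lies upstream on the same strand. The longest 3' extension with Control SMO lay in the same interval, running 5233 bases beyond the end of Pura (chr18:36287339-36297768, FPKM 4.89), which encodes a single-stranded nucleic acid binding protein. Across the start of Wrn, a RecQ helicase, a transcript on the opposite strand extended 2567 bases (chr8:33385472-33388094, FPKM 1.64) and only 56 bases lay within Wrn. It also crossed the 5' end of Purg. That of Shld2, a shieldin subunit, was likewise on the opposite strand, extended 1983 bases with 28 bases inside (chr14:34310466-34312476, FPKM 2.03), and reached into Glud1. On the strand of the host, Zbtb2, a zinc finger transcription factor, had an extension of 1979 bases (FPKM 2.05), and Hoxa6, a homeobox gene, one of 1902 bases (FPKM 1.32), without an assigned Hoxa6 transcript in either library.

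With Control SMO the most abundant 5' transcript across a coding gene was at Ctsc, the gene of cathepsin C (chr7:88277967-88278553, FPKM 9.69). It extended 118 bases upstream, with 49.4% of its bases in exons, and Ctsc itself had an FPKM of 160 after Control SMO and 44.9 after LFPRLR SMO. Usp49, a deubiquitinase, was crossed with an FPKM of 5.98 by a transcript that extended 336 bases and held 31 bases of the gene, and Tcf7l2, a transcription factor of the Wnt pathway, with an FPKM of 3.05 by one that extended 325 bases. At Cetn4, which encodes a centrin, the extension was 1418 bases and the FPKM 2.33. None of these 4 was crossed at the 5' end with LFPRLR SMO. Cdk10, ranked by FPKM between Tcf7l2 and Cetn4 at 2.35, was crossed at the 5' end in both libraries. The longest extension, 15011 bases at Zrsr2, a component of the minor spliceosome, belonged to a spliced transcript on the opposite strand with only 54 bases in the gene (FPKM 1.07). At Tk1, the gene of thymidine kinase, the extension was 1687 bases, with 38 bases in the gene and an FPKM of 1.47.

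Some transcripts crossed the starts of 2 neighbouring genes, counted here without genes that a transcript spans whole. With LFPRLR SMO, 45 transcripts crossed the 5' ends of 2 coding genes on opposite strands, compared with 2 with Control SMO. Pairs of transcript and coding gene at 5' ends numbered 1393 and 50 in these libraries, so the counts followed the number of crossings. The following were taken from the upper part of this list after their values were seen. A transcript of 673 bases joined Foxm1, a transcription factor of the G2/M phase, with Rhno1, which takes part in checkpoint signalling (chr6:128362783-128363455, FPKM 5.30). One of 640 bases joined Pip4p1 with Pnp, the gene of purine nucleoside phosphorylase (chr14:50930535-50931174, FPKM 4.76). Psma7, a proteasome subunit, was joined with Ss18l1 (FPKM 3.38), Hras with Lrrc56 (FPKM 2.92), and Tada2a with Acaca, the gene of acetyl-CoA carboxylase (FPKM 2.83). A further 8 transcripts with LFPRLR SMO, and none with Control SMO, crossed the 5' end of 1 coding gene and the 3' end of another without spanning either, and among these were 2 that crossed the 5' end of Hoxa5 (FPKM 2.67 and 1.96), one of 4443 bases and the other of 1898 bases.

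Several genes were crossed at the 3' end in both libraries. Nrp1, a co-receptor of semaphorins and VEGF, was crossed at chr8:128502534-128505591 with an FPKM of 5.51 with Control SMO and at chr8:128502531-128505445 with 5.40 with LFPRLR SMO. It ran 2228 and 2082 bases past the end of the gene. Syne1, which encodes the nuclear envelope protein nesprin-1, was crossed with an FPKM of 6.60 and 4.96, extending 588 and 657 bases (chr10:5020329-5020959 with Control SMO). Mid1, a microtubule-associated ubiquitin ligase, was crossed with 5.97 and 10.9, by transcripts of 500 and 2094 bases that extended 77 and 80 bases. At Nrp1 and Syne1 the transcripts of both libraries covered much the same bases, whereas at Mid1 only the outer ends lay close together.

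Other 3' hosts were found in a single library under the definition used here. At 3' ends of coding genes, some transcript of the other library often covered bases beyond the gene. With shared hosts included, this held for 39 of 54 pairs after Control SMO and 45 of 69 after LFPRLR SMO. With Control SMO, the copper transporter gene Atp7a was extended by 2987 bases (FPKM 2.39), the kinase gene Stk24 by 2417 bases (FPKM 0.677) and the centriolar satellite gene Pcm1 by 2332 bases (FPKM 2.08), with 7 bases of the last transcript inside the gene. The most abundant with a coding host, at Anxa3, an annexin gene, had an FPKM of 8.60 and extended only 61 bases. With LFPRLR SMO, Hipk2, a homeodomain-interacting kinase, was extended by 2175 bases (FPKM 1.68), Rbms2, an RNA binding protein, by 2167 bases (FPKM 2.24) and Clta, a clathrin light chain, by 35 bases (FPKM 4.00). R3hcc1l was crossed by a transcript on the opposite strand that extended 3098 bases (FPKM 0.404). The hosts Fam210a, with an extension of 4437 bases and an FPKM of 1.70, and Mbnl3, a regulator of splicing, with 3692 bases and 2.58, were crossed at the 3' end in both libraries.

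A poly(A) signal at the annotated end was found in under 50% of the genes crossed at the 3' end. The last 50 bases of the longest transcript that reaches the annotated 3' end were searched for AATAAA or ATTAAA on the strand of the gene. A hexamer was found in 22 of 54 3' hosts (40.7%) after Control SMO and 33 of 68 (48.5%) after LFPRLR SMO. Among the 8372 expressed coding genes the share was 79.6%, among all protein coding genes 71.9%, and among the 5' hosts 70% after Control SMO and 78.7% after LFPRLR SMO. Examples with and without a hexamer are given for hosts named above, as 30 bases of GENCODE transcript sequence ending at or near the annotated end, with hexamers in capitals. They lie at chr14:121286343-121286372 (minus strand), chr8:41332314-41332343 (plus strand), chr10:5020917-5020946 (minus strand), chr8:128503334-128503363 (plus strand) and chr2:131069220-131069249 (minus strand).
Stk24: gaatgcttacacaAATAAAttttataactc
Pcm1: gttttaAATAAAgtttgaacttatctgtaa
Syne1: aatctaAATAAAgaaaatatccaATTAAAa
Nrp1: gcagcgagcacaggaaaaagaaacgaaaag
Siglec1: ggtcacataaacataccatgctgaaaggga
Stk24 and Pcm1 were crossed with Control SMO, and Syne1, Nrp1 and Siglec1 in both libraries. A match in these letters is a description and does not show where cleavage took place.

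The same region was assembled in both libraries for part of these transcripts. Counting a pair as matched when each covered at least 50% of the exon bases of the other, 39 of the 83 5' transcripts with Control SMO (47.0%) and 54 of the 1416 with LFPRLR SMO (3.81%) had a match of any kind in the other library. At 3' ends 41 of 99 (41.4%) and 34 of 137 (24.8%) had one. Over all transcripts, 11851 of the 22481 with Control SMO and of the 31908 with LFPRLR SMO had a match. The bases beyond the gene gave a similar account. Of those at 5' ends of coding genes with Control SMO, 54.4% were covered by some transcript with LFPRLR SMO, whereas of those with LFPRLR SMO 13.7% were covered with Control SMO. At 3' ends the shares were 64.8% and 65.4%.

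Matched pairs in which both transcripts crossed a gene end numbered 66, of which 27 crossed 5' ends in both libraries, 19 crossed 3' ends, 15 crossed both kinds of end and 5 differed in kind. With LFPRLR SMO 10 of the 66 were higher by at least a factor of 2 (15.2%) and 3 were lower (4.55%). Of all 11851 matched transcripts, 915 (7.72%) were higher and 1087 (9.17%) lower. Matched unassigned transcripts of any kind had shares near those of the 66, with 224 (14.6%) higher and 41 (2.67%) lower. The median log2 ratio was 0.14 over the 66, compared with 0.40 over 1537 matched unassigned transcripts and -0.08 over all matched transcripts. These ratios are between single libraries, with no replicate spread against which to read them.

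**Figure D5:**
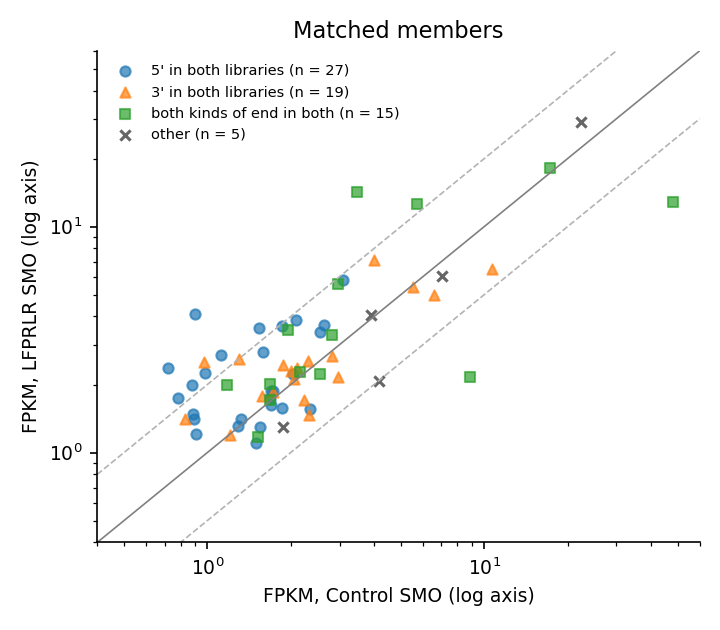
FPKM with Control SMO (horizontal, log axis) and LFPRLR SMO (vertical, log axis) of matched transcripts that crossed a gene end in both libraries, by the kind of end, with lines at equal values and at a factor of 2. Of 66 pairs 10 lie above the upper line and 3 below the lower one, and 1 pair, at 26260.6 and 15527.9, is outside the axes.

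Leaving out predicted genes, 15 matched transcripts crossed the 5' end of a coding gene. At Maml2, a co-activator of Notch signalling, they had an FPKM of 2.08 after Control SMO and 3.87 after LFPRLR SMO. Its transcripts began at 13296698 and 13296696 on chromosome 9, 1259 and 1261 bases before the gene. Irf2bp2, a transcriptional co-regulator, had 2.03 and 2.23, Cdcp1, a transmembrane protein of carcinomas, 1.69 and 1.87, and Insl3, a peptide hormone of the relaxin family, 1.68 and 1.73. Only 4 bases of the Control SMO transcript at Irf2bp2 lay within the gene. Among these 15 the largest ratios were at Fam241a, with 0.904 and 4.11 (4.55-fold), Pcif1, the cap-specific adenosine methyltransferase, with 0.721 and 2.37 (3.29-fold), and Trappc9, a subunit of a trafficking complex, with 0.978 and 2.25 (2.30-fold). Their Control SMO values lay near the lowest of any transcript across a gene end in that library, 0.677. The paired transcripts also differed in extent, as at Pcif1 with 1323 bases after Control SMO and 796 after LFPRLR SMO. The smallest ratios were at Cdk10, a cyclin-dependent kinase, with 2.35 and 1.57, Zfp810 with 1.54 and 1.30, and Hyls1, a centriolar protein, with 1.70 and 1.62. The transcript at Hyls1 also crossed the start of Pate2 on the opposite strand. Eepd1 had 1.59 and 2.80.

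At 3' ends 9 matched transcripts had coding hosts, and none of them differed by a factor of 2. Besides Nrp1 and Syne1, Sfi1, a centrosomal protein, had 4.00 after Control SMO and 7.11 after LFPRLR SMO, both extending 1114 bases. These transcripts held only 44 and 59 bases of Sfi1. Both also crossed the 3' end of the pseudogene Pisd-ps1, with 269 bases inside it. The one with LFPRLR SMO was on the strand opposite to Sfi1. Ncl, the gene of nucleolin, had 0.834 and 1.40. Siglec1, a sialic acid receptor of macrophages, was crossed with 2.97 and 2.17, with 1132 and 1066 bases beyond the gene. Nkain1 had 2.33 and 1.47, Fam13b 2.31 and 2.54, and the zinc finger genes Zfp970 and Zfp931 2.11 and 2.36, and 1.73 and 1.86.

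Part of the extensions lay within a longer model of the same gene. Compared with RefSeq gene spans on GRCm38, which matched 94% to 98.4% of pairs in each set, 30.1% of the bases beyond the 5' end after Control SMO and 27.7% after LFPRLR SMO were inside the RefSeq span of the host. At 3' ends this held for 50.3% and 48.5%. In transcripts from sorted tumor Tregs of the same study, little of the bases beyond the gene was covered, 1.47% and 0.974% at 5' ends and 2.13% and 0.212% at 3' ends. The Treg list held 4838 transcripts, made with another program, and all 4838 had the same values under both treatments, so that it counts as 1 set and its treatment cannot be known.

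The level of the host genes was compared between the libraries as well. Gene FPKM was the sum over assigned transcripts, and ratios were taken with a pseudocount of 0.1. Of 1093 genes crossed at the 5' end with LFPRLR SMO that had an FPKM of at least 1 in a library, 139 (12.7%) were higher by a factor of 2 with LFPRLR SMO and 161 (14.7%) were lower. Of all 10525 such genes, 19.0% were higher and 17.0% lower. Among 56 genes crossed at the 3' end with LFPRLR SMO, 9 were higher and 7 lower. The median log2 ratio was -0.10 over the 5' hosts, -0.03 over the 3' hosts and -0.07 over all genes.

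A list of 38 symbols of 3' end processing and transcription termination genes was examined beside these counts. It stands for 37 genes, since Cpsf3l is an older symbol of Ints11, and 36 of them were listed. With LFPRLR SMO 3 were higher by a factor of 2 and 2 were lower, against the 19.0% and 17.0% of all genes, with a median log2 ratio of 0.18. Rbbp6, a component of the cleavage and polyadenylation machinery, had an FPKM of 8.93 after Control SMO and 33.1 after LFPRLR SMO, Ints11, the endonuclease of the Integrator complex, 2.996 and 6.47, and Nudt21, a subunit of cleavage factor Im, 9.71 and 20.4. The polyadenylation factor Fip1l1 had 36.6 and 10.2, and Pabpc1, the cytoplasmic poly(A) binding protein, 484 and 144. The exonuclease gene Xrn2, which acts in termination, had 19.1 and 32.1. Of the list, Scaf4 and Ints6 were crossed at the 5' end and Wdr33 at the 3' end, all with LFPRLR SMO.

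Some of the transcripts spanned a whole miRNA gene. There were 7 such miRNA genes after Control SMO and 40 after LFPRLR SMO, with 5 in both, among 209 and 1662 transcripts across gene ends. Of those spanned with LFPRLR SMO only, Mir21a, Mir7238 and Gm44454 were covered with Control SMO by transcripts assigned to a gene and so not counted. A miRNA is cut from a longer primary transcript, and it recognises targets through its seed, bases 2 to 8. The following were chosen after their values were seen, as miRNAs whose primary transcripts are well known, and their mature sequences are from RefSeq (GRCm38), with the seed in capitals.
miR-29a-3p: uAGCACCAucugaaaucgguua
miR-29b-3p: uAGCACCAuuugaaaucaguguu
miR-132-3p: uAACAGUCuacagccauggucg
miR-212-3p: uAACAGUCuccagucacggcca
miR-222-3p: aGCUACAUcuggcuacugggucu
miR-125b-5p: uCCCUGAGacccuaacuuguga
miR-21a-5p: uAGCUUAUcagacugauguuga
miR-31-5p: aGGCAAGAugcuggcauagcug
Both members of the miR-29 pair share a seed, as do miR-132 and miR-212, and each pair lies within 1 assembled transcript with LFPRLR SMO.

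Mir29a was spanned in both libraries, by a transcript of 385 bases with an FPKM of 5.29 with Control SMO (chr6:31062632-31063016) and by one of 2640 bases with 2.05 with LFPRLR SMO (chr6:31062102-31064741). The latter also covered Mir29b-1. Mir132 and Mir212 were spanned with LFPRLR SMO by a transcript of 1059 bases (chr11:75173198-75174256, FPKM 1.62), and Mir222 by one of 820 bases (chrX:19146392-19147211, FPKM 2.13). No Control SMO transcript covered these 3 genes or Mir29b-1, although some lay close by. Mir29b-1 fell between the Control SMO transcript across Mir29a and another at chr6:31063116-31064271 (FPKM 1.45). A Control SMO transcript across the 3' end of Mir221 (chrX:19145458-19146294, FPKM 3.27) ended short of Mir222. Mir125b-1 was spanned with LFPRLR SMO by a transcript with an FPKM of 29.1 (chr9:41580727-41584355), and its Control SMO match began downstream of the miRNA, at 41582010, with an FPKM of 22.4, where it crossed the 3' end of Gm28119, whose span also holds the miRNA.

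Mir21a lies within the annotated span of Vmp1, a gene of autophagy, close to its 3' end. With LFPRLR SMO a transcript of 4629 bases crossed the Vmp1 end and spanned Mir21a (chr11:86581384-86586012, FPKM 7.41). With Control SMO the miRNA was covered by 4 transcripts with a summed FPKM of 16.0, but these were assigned to Vmp1, so the absence of a Control SMO transcript here reflects the assignment. Mir31 was spanned with Control SMO only (chr4:88908763-88911494, FPKM 7.02), and no transcript covered it whole with LFPRLR SMO. The LFPRLR SMO match of that transcript began at the same base and ended just inside Mir31, at 88910564, with an FPKM of 6.03. The transcript level is that of the RNA around the miRNA gene, and mature miRNAs were not measured.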

How the data were processed

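RNAseq libraries were made from whole tumors of mice given Control SMO or LFPRLR SMO, 1 library of pooled RNA from 6 mice each. The authors aligned the reads to mm10 and assembled transcripts. Programs named in the submitters' processing notes were Cufflinks, with its version not given in the sources used here, Cuffdiff 2.0.2, StringTie 1.2.3 and HISAT2 2.0.4. The deposited whole tumor lists hold, per transcript, an FPKM, a coverage and a score, and the score was not used. FPKM values were taken as the authors deposited them. Depth is unknown, so that no counting interval can be given. The authors' StringTie list of tumor Tregs was used only for its positions.

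Transcripts were compared with 55450 genes of GENCODE (GRCm38, the same build as mm10) in Python 3.11.15 with numpy 2.4.6. A transcript was assigned by a shared intron or, failing that, by at least 50% of its exon bases in 1 gene. For the crossing transcripts exon bases were counted against the exons of all genes together, and strand was not used. An extension is the distance from the gene end to the outer end of the transcript, the longest where a transcript had several hosts. Classification was tested on 3000 simulated transcripts, of which 0 were classified wrongly. Named hosts were, per library and end, the 5 with the longest extension and the 5 with the highest FPKM among transcripts of at least 300 bases with a coding host, and among matched transcripts the 10 highest in both libraries and the 3 largest and 3 smallest ratios. Predicted genes were not described. In the list of end processing genes those with the highest level or the largest ratio were named. The members, lists and rules were chosen with earlier results of these data known. RefSeq promoter windows matched 77.7% of the 5' hosts with LFPRLR SMO, so that CG content was taken from GENCODE transcripts, which covered 99.8% of them. Each group is 1 library, and no test was made.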

Additional observations from a re-analysis of the deposited data

How the results depend on the processing

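Alternatives are given where a value moved by over 1.5 times. In the order Control SMO 5' and 3', LFPRLR SMO 5' and 3', the counts of 83, 99, 1416 and 137 became 47, 47, 600 and 59 with under 25% of exon bases in exons, 4, 10, 49 and 8 at an FPKM of at least 5, and 1, 1, 2 and 2 for spliced transcripts on the strand of the host. With only protein coding hosts the Control SMO counts became 48 and 52 and the LFPRLR SMO 3' count 58. Without transcripts wholly inside another gene, an alternative chosen after seeing the data, they became 41, 65 and 66. Matched transcripts fell from 66 to 27 at 80% shared bases, with 1 higher and 1 lower, and at a factor of 3 there were 3 higher. Host genes past a factor of 3 were 76 higher and 99 lower, compared with 154 and 172 at a factor of 2. The share of transcripts with at least 1 base in the Treg list was 6% and 11.1% with Control SMO (5' and 3') and 2.37% and 1.45% with LFPRLR SMO. The other 65 values stayed within 1.5 times. The 5' count was higher with LFPRLR SMO under every alternative run, but at 1 and 2 transcripts for the spliced ones.

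A search for a poly(A) hexamer at the assembled ends, with its alternatives, was not run because no genome was used here. The search at annotated ends was chosen after seeing the data. No paired analysis was possible because each treatment had 1 library. A transcript missing from a list is not shown to be absent from the tumor.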
